A study of Mus musculus with 43 samples.

Results

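Glycolysis breaks glucose down to pyruvate, glycogen is the form in which glucose is stored, and hypoxia genes are switched on when oxygen is short. The 35 genes described here cover these 3 processes and are 35 of the 24537 genes in each deposited table. They were chosen by symbol, from the list of enzymes, transporters, regulators and oxygen-regulated genes, and each symbol was found in all 3 tables. The cells were mouse astrocytes, and polyadenylated RNA was sequenced as single reads of 50 bases. The first table held cultures from wild-type mice (WT, 6 libraries) and from mouse models of fragile X syndrome (FXS, 6), Rett syndrome (RTT, 6) and Down syndrome (DS, 4). The second held WT cultures that received the growth factor BMP6 (6 libraries) or none (Alone, 6). The last table held 3 preparations with 3 libraries each, named immunopanned acute (IP acute), immunopanned cultured (IP cultured) and MD cultured. For the first 2 tables, astrocytes of 7-day-old pups (postnatal day 7, cortex) were caught by immunopanning, in which antibodies on a dish hold one cell type, and grew for 12 days in serum-free medium. BMP6 was present for the last 5 of those days. The labels name no strain or allele for the models, do not say what MD stands for, and give no age, brain region or culture time for the last table. The disorder and BMP6 libraries are described as biological replicates. Nothing says that libraries of the last table came from separate cultures, so its p-values measure only the spread between these libraries.

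Glucose enters the cell through Slc2a1, is trapped by hexokinase and is split and oxidised to pyruvate, which lactate dehydrogenase can turn into lactate for export. Astrocytes are known as the glycolytic cells of the cortex, as the site of nearly all its glycogen, and as a source of lactate for neurons. When oxygen falls, prolyl hydroxylases no longer mark hypoxia-inducible factor (HIF) for destruction, and HIF raises genes for glycolysis, blood vessel growth and pH control by binding the short core sequence RCGTG.

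All values are FPKM, reads scaled for transcript length and library depth, so levels of different genes may be set side by side, but only within a table. The preparation table names no unit, and its values were taken as FPKM. A difference is that of mean log2(FPKM + 0.5), where the added 0.5 understates the change of low genes. A gene was tested where it reached an FPKM of 1 in at least the number of libraries in its table's smallest group, and it passed at a limma p-value under 0.05 after Benjamini-Hochberg adjustment over all genes tested. The 95% interval of a difference comes from the same fit. Library depth, read from the steps of the low FPKM values, was 10.5 to 55.4 M reads (M for mega), with medians of 18.2 M in WT, 44.5 M in FXS, 36.1 M in RTT and 31 M in DS. The libraries carried astrocyte markers such as Slc1a3 and Gja1. Per library, the FPKM of 13 markers summed to 2280 to 3530 in the disorder table and 1450 to 4160 in the BMP6 table. In the preparation table they summed to 4780 to 11300. Fmr1, the gene lost in fragile X syndrome, had a mean of 1.56 in FXS and 13.7 in WT, a difference of -2.81 (adjusted p = 1.1e-10). App and Dyrk1a, which are present in extra copy in Down syndrome models, were higher in DS and passed the test. Among the libraries, IP cultured 4 stood apart from IP cultured 2 and 7, and the untreated cultures of batches 4 and 6 stood apart from the other Alone cultures, and calls that change without them are given beside the result. RNA from a mixed culture does not separate fewer cells of a type from less RNA per cell, which cannot be told apart in any result below.

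The sequence just upstream is shown for the 6 hypoxia genes that have an entry and for Slc2a1, itself a known target of HIF, since these are the genes whose levels in acute and cultured cells the results return to. The windows are the 250 bases before the most upstream start listed by RefSeq on GRCm38.p6, the assembly also known as mm10. Capitals mark matches to ACGTG or GCGTG, the letters of the HIF core, on either strand, where they read CACGT or CACGC. The letters CACGTG hold a match on each strand.
Slc2a1: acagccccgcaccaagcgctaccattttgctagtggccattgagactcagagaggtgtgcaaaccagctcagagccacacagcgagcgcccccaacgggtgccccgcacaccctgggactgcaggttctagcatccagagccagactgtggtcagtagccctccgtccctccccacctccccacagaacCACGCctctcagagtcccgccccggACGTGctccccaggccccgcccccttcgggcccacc
Vegfa: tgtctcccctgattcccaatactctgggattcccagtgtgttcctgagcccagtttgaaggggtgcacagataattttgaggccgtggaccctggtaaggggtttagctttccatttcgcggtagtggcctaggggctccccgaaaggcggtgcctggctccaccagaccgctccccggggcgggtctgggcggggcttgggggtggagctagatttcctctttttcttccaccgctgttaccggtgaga
Bnip3: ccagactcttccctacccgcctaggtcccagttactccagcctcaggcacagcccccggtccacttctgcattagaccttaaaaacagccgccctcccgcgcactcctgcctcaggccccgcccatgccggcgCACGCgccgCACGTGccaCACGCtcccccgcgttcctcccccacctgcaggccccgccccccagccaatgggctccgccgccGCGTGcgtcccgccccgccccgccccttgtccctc
Car9: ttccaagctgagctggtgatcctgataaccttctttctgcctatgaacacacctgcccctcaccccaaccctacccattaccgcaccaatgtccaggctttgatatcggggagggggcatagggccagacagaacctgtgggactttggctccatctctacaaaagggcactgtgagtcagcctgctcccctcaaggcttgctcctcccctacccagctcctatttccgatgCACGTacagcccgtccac
Egln3: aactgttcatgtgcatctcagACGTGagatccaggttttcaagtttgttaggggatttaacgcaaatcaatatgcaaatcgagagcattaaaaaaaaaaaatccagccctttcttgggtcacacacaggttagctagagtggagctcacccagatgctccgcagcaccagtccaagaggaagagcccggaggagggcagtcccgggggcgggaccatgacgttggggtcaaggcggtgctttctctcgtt
Ankrd37: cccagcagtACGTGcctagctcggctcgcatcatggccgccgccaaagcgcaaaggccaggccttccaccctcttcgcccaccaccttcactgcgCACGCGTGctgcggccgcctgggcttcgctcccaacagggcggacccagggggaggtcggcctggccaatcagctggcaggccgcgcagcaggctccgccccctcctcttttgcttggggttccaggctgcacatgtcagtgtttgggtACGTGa
Ddit4: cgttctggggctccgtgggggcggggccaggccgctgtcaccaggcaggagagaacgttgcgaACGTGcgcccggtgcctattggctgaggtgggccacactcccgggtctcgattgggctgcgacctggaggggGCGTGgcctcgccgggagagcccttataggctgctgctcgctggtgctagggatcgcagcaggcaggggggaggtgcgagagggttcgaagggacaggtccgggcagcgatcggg

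The Slc2a1 window lies at chr4:119108495-119108744 on the plus strand and that of Car9 at chr4:43506776-43507025 on the plus strand. The other windows are on the minus strand, Vegfa at chr17:46032378-46032627, Bnip3 at chr7:138909507-138909756, Egln3 at chr12:54203875-54204124, Ankrd37 at chr8:45999851-46000100 and Ddit4 at chr10:59951771-59952020. Bnip3 held 5 matches, Ankrd37 held 4, Slc2a1 and Ddit4 held 2 each, Car9 and Egln3 held 1 each, and Vegfa held 0. Of the 35 genes, 34 had an entry and Ndrg1 did not. Either core was present in 25 of the 34 windows (73.5%), against 10442 of 27025 genes (38.6%). ACGTG, with or without GCGTG, was in 17 of the 34 windows (50%) and in 16.5% of all genes. GCGTG, with or without ACGTG, was in 16 windows (47.1%) and in 28.3% of all genes. The windows of the 34 genes were also richer in G and C, with a median of 59.6% against 52%, and the part of base composition in these shares was not tested. A match here is a description of letters and not a site of binding.

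Within the untreated WT cultures the genes spanned a wide range of levels. Among the enzymes of upper glycolysis, aldolase A (Aldoa), which splits the 6-carbon sugar, had 336 to 458 FPKM with a median of 402. The brain form Aldoc had 128 to 157, with a median of 133. Hexokinase 1 (Hk1), the enzyme that traps glucose, ran from 43.2 to 48.4, while the inducible form Hk2 had a median of 0.834. Of the 3 phosphofructokinases, which catalyse the committed step, the muscle form Pfkm led with 138 to 152, ahead of the platelet form Pfkp at 29 to 49 and the liver form Pfkl at 16.1 to 22.3. Lactate dehydrogenase B (Ldhb), the form that favours lactate as a substrate, stood at 423 to 604 and Ldha, the form that favours lactate production, had a median of 148. The glycogen phosphorylases, which release glucose from glycogen, were led by the brain form Pygb at 146 to 235, against 1.72 to 4.2 for the muscle form Pygm. Thus Hk1, Pfkm, Ldhb and Pygb were in every WT library above their paralogs Hk2, Pfkl and Pfkp, Ldha and Pygm.

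Some levels are uncertain because the transcript shares its sequence with other genes. Of all 50-base windows of the transcript, 90.4% occur in another gene for Gapdh, 72.2% for Eno1, 68% for Pgk1, 65.7% for Pfkfb2, 62.4% for Bnip3, 41.5% for Pgam1 and 34.4% for Pkm. Smaller parts were shared for Ldhb (27%), Gpi1 (25.3%), Ldha (19.1%), Pfkp (17.1%), Ndrg1 (14.6%), Aldoa (14.4%) and Ankrd37 (11.4%). Gapdh, an abundant enzyme in most cells, was listed at only 0.029 to 0.302 FPKM in the disorder table, about 1 to 18 reads a library (0.989 to 18), and was tested in no table. How the counting treated reads that fit several places is not given in the sources used here, so low levels of these genes are not read as low expression. Aldoa and Vegfa are listed with a different transcript in the preparation table. Slc16a3, a lactate exporter, and Ankrd37 fell below the limit in the first 2 tables, and Hk2 in the BMP6 table, which left 32, 31 and 34 genes tested in the disorder, BMP6 and preparation tables.

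**Figure D1:**
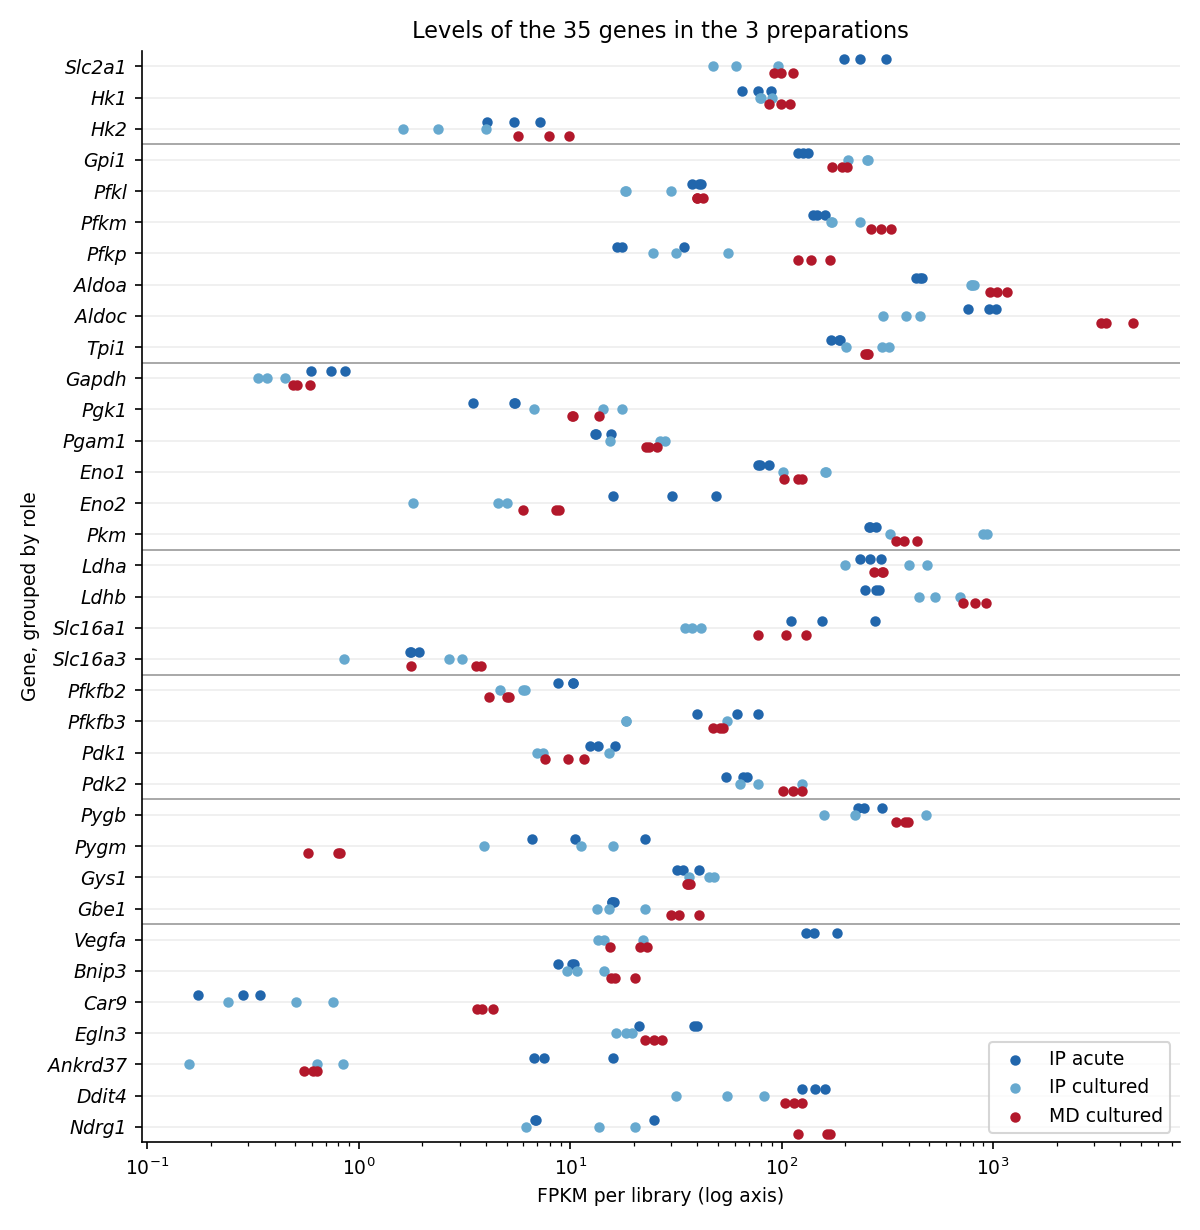
FPKM of the 35 genes in each library of the 3 preparations, on a log axis, with 1 point per library. Aldoc and Ndrg1 stand highest in the 3 MD cultured libraries (Aldoc 3250 to 4570), Vegfa and Ankrd37 in the 3 IP acute libraries (Vegfa 130 to 182), and Pygm lowest in MD cultured (0.573 to 0.815).

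The comparison of IP cultured with IP acute asks how these genes differ between astrocytes kept in a dish and astrocytes taken straight from tissue. Of the 34 genes tested, 8 were higher and 11 lower in culture, against 43.3% of all 14101 genes tested in either direction (17.8% higher and 25.5% lower). The median difference was 0.11 for the members and -0.04 for all genes. The falls included the main carriers of glucose and lactate and 4 of the 7 hypoxia genes. The rises were all in enzymes, 3 of upper glycolysis, 4 of lower glycolysis and Ldhb. Markers of other cells moved as well, with oligodendrocyte markers at 633 to 1320 FPKM summed in IP cultured and 174 to 409 in IP acute (6 of 6 higher), precursor markers at 50.6 to 150 and 388 to 790 (3 of 3 lower), and microglial markers at 71.7 to 224 and 138 to 1510 (4 of 10 lower). The astrocyte markers summed to 4780 to 7860 and 6310 to 9470, with 2 of 13 higher and 6 lower, and the part of all these in the members' differences was not tested. Under quantile normalization 11 were higher and 9 lower, with the median of all genes moved to 0.17. The authors' deposited table had 8 higher and 11 lower.

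Glucose transporter 1 (Slc2a1), through which glucose enters, had 313, 197 and 234 FPKM in IP acute and 60.9, 96.6 and 47.5 in IP cultured. The lactate transporter Slc16a1 had 276, 111 and 156 in IP acute and 37.6, 41.7 and 34.8 in IP cultured. Both were lower in all 3 cultured libraries, without overlap. Slc2a1 fell 3.70-fold (difference -1.89, SE 0.26, adjusted p = 0.000704) and Slc16a1 fell 4.40-fold (difference -2.14, SE 0.31, adjusted p = 0.000911). Both genes are also made by endothelial cells of brain vessels, and 9 endothelial markers summed to 805 to 1520 FPKM in IP acute and 4.09 to 21.1 in IP cultured, with 9 of 9 lower. The part of endothelial RNA in these differences was not tested. Hk2 fell from 4.06, 5.41 and 7.22 to 4.01, 1.62 and 2.38, with groups that nearly touch (difference -0.97, SE 0.32, adjusted p = 0.0384). Hk1 had 64.9 to 88.6 in IP acute and 78.7 to 89.6 in IP cultured, and its interval of -0.20 to 0.43 includes no difference (adjusted p = 0.54).

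In upper glycolysis, glucose phosphate isomerase (Gpi1), which turns glucose 6-phosphate into fructose 6-phosphate, had 134, 120 and 126 FPKM in IP acute and 255, 207 and 253 in IP cultured. Aldoa had 433, 463 and 452 in IP acute and 809, 783 and 791 in IP cultured. Neither gene's groups overlapped. Gpi1 rose 1.87-fold (difference 0.90, SE 0.12, adjusted p = 0.000507) and Aldoa 1.77-fold (difference 0.82, SE 0.12, adjusted p = 0.000796). Aldoc, the aldolase form used as an astrocyte marker, went the other way, from 1030, 760 and 953 to 303, 453 and 386. Its groups did not overlap, and it fell 2.41-fold (difference -1.27, SE 0.21, adjusted p = 0.00177). Pfkl fell from 41.4, 37.8 and 40.8 to 18.2, 30.1 and 18.3 (difference -0.87, adjusted p = 0.00501), and triose phosphate isomerase (Tpi1) rose by 0.56 (adjusted p = 0.0241).

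Lower glycolysis held 4 of the 8 rises. Pyruvate kinase (Pkm), which makes pyruvate, had 262, 280 and 258 FPKM in IP acute and 932, 325 and 894 in IP cultured. Phosphoglycerate kinase (Pgk1) had 3.48, 5.43 and 5.5 in IP acute and 14.3, 6.76 and 17.6 in IP cultured. In both genes the library IP cultured 4 lay close to the acute libraries and the other 2 lay far above. Pkm rose 2.43-fold (difference 1.28, SE 0.36, adjusted p = 0.0192) and without that library the difference was 1.77 (adjusted p = 2.91e-05). Pgk1 rose by 1.26 (SE 0.33, adjusted p = 0.0154), phosphoglycerate mutase (Pgam1) by 0.68 (adjusted p = 0.0283) and enolase 1 (Eno1) by 0.77 (adjusted p = 0.00973). Enolase 2 (Eno2), best known as the enolase of neurons, fell from 30.2, 48.7 and 16 to 5.01, 4.55 and 1.81. Every cultured library was below every acute one (difference -2.87, SE 0.44, adjusted p = 0.00119). The 9 neuron markers summed to 381 to 1660 in IP acute and 19.5 to 31.3 in IP cultured, all 9 lower, and the part of neuronal RNA in the Eno2 value was not tested.

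For lactate, Ldhb had 280, 249 and 288 FPKM in IP acute and 447, 701 and 530 in IP cultured, a rise of 2.02-fold without overlap (difference 1.02, SE 0.18, adjusted p = 0.00233). Ldha had 236, 296 and 262 in IP acute and 489, 199 and 401 in IP cultured, where IP cultured 4 was the lowest of the 6 libraries. Its difference of 0.36 did not pass (interval -0.30 to 1.03, adjusted p = 0.346), and without IP cultured 4 it was 0.75 (adjusted p = 0.00209). Among the regulators, Pfkfb2, which makes an activator of phosphofructokinase, fell by 0.76 (adjusted p = 0.00499). Under quantile normalization Pfkfb2 (-0.35, adjusted p = 0.0599) and Hk2 (-0.41, adjusted p = 0.38) no longer passed, and without IP cultured 4 Pdk1 (-0.92) and Pfkfb3 (-1.62) did. Of the 4 glycogen genes tested, 0 passed, although Gys1 did without IP cultured 4 (0.39, adjusted p = 0.0207). Pygm, for example, had 22.7, 6.59 and 10.5 in IP acute and 11.3, 3.92 and 16 in IP cultured (difference -0.36, interval -1.58 to 0.86, adjusted p = 0.623), and its difference was 0.19 without IP cultured 4.

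The hypoxia genes gave the 2 largest falls. Vegfa, the growth factor that draws in blood vessels, had 130, 142 and 182 FPKM in IP acute and 22, 14.5 and 13.5 in IP cultured. Ankrd37 had 15.9, 6.72 and 7.53 in IP acute and 0.157, 0.843 and 0.637 in IP cultured. Neither pair of groups overlapped, and the lowest acute library of Vegfa was far above the highest cultured one. Vegfa fell 8.95-fold (difference -3.16, SE 0.22, adjusted p = 2.54e-05) and Ankrd37 9.83-fold (difference -3.30, SE 0.36, adjusted p = 0.000223). Ankrd37 reached the limit for testing through the acute libraries alone, so its difference follows in part from its selection. Ddit4, an inhibitor of the growth kinase mTORC1, had 125, 144 and 160 in IP acute and 55.3, 31.6 and 82.8 in IP cultured, and fell by 1.43 (SE 0.30, adjusted p = 0.00501). Egln3, the prolyl hydroxylase that marks HIF for destruction and is itself raised by HIF, fell from 21.2, 39.6 and 38.6 to 16.4, 18.3 and 19.7 (difference -0.80, adjusted p = 0.0201). The mitophagy receptor Bnip3, the cell surface carbonic anhydrase Car9 and the stress-responsive gene Ndrg1 had differences of 0.22, 0.36 and 0.17, none past the threshold. The calls that were lost when a single library was left out were those of Hk2 (without IP acute 4 or 7, or IP cultured 4 or 7), Tpi1 (IP acute 2, 4 or 7, or IP cultured 2 or 7), Pgam1 (IP acute 4 or 7, or IP cultured 2 or 7), Pgk1 (IP acute 2, or IP cultured 2 or 7), Pkm (IP acute 2 or 7, or IP cultured 2 or 7) and Egln3 (IP acute 4 or 7, or IP cultured 2). Their adjusted p then ran from 0.0501 for Tpi1 to 0.13 for Hk2.

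The comparison of MD cultured with IP cultured sets 2 kinds of culture side by side, and shares its IP cultured libraries with the comparison above. Of 34 genes tested, 13 were higher and 1 was lower in MD cultured, against 45.8% of all genes in either direction (16.4% higher and 29.3% lower). The median difference was 0.45 for the members and -0.16 for all genes, where scaling by the median of ratios moved the second to 0 and gave 16 higher and 1 lower. Without IP cultured 4, 17 were higher and 7 lower, against 54.4% of all genes. The authors' deposited table had 17 higher and 1 lower. Together the 35 genes took 1.26 to 1.54% of the summed FPKM of an MD cultured library, against 0.633 to 0.735% in the other preparations.

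Aldoc was the most abundant of the 35 genes in MD cultured, with 3430, 3250 and 4570 FPKM against 303, 453 and 386 in IP cultured. It was higher in all 3 libraries by a wide margin, 9.86-fold (difference 3.30, SE 0.21, adjusted p = 5.76e-05). Pfkp had 119, 138 and 169 in MD cultured and 31.7, 55.5 and 24.7 in IP cultured, a rise of 3.96-fold without overlap (difference 1.98, SE 0.35, adjusted p = 0.00236). The other phosphofructokinases rose less, Pfkl by 0.90 (adjusted p = 0.00437) and Pfkm by 0.62 (adjusted p = 0.00811). Aldoa rose by 0.40 (adjusted p = 0.0211). Hk2 rose from 4.01, 1.62 and 2.38 to 5.69, 7.9 and 9.82 (difference 1.43, SE 0.32, adjusted p = 0.00764), while Hk1 at 86.8 to 110 had an interval of -0.06 to 0.57. Of the 5 genes of lower glycolysis tested, 0 passed. Without IP cultured 4, the difference was -1.24 for Pkm (adjusted p = 0.000104) and -0.49 for Eno1 (adjusted p = 0.00532), both then past the threshold.

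Slc16a1 had 130, 105 and 77 FPKM in MD cultured against 37.6, 41.7 and 34.8, and rose 2.65-fold (difference 1.41, SE 0.31, adjusted p = 0.00698). Its groups did not overlap. Slc2a1 had 113, 98.8 and 92.4 against 60.9, 96.6 and 47.5, with overlap through IP cultured 4, and did not pass (difference 0.62, interval 0.03 to 1.22, adjusted p = 0.0802). Without that library its difference was 0.90 (adjusted p = 0.00617). Ldhb rose by 0.57 (adjusted p = 0.0299) and Ldha had a difference of -0.22 (interval -0.89 to 0.44, adjusted p = 0.559), which became -0.61 without IP cultured 4 (adjusted p = 0.00513). The branching enzyme of glycogen, Gbe1, had 32.6, 30 and 40.5 against 13.4, 22.6 and 15.3, a rise of 2.01-fold (adjusted p = 0.00344). Pygm was the gene that fell, with 0.573, 0.815 and 0.799 in MD cultured against 11.3, 3.92 and 16 in IP cultured. It was lower in every library, 7.77-fold (difference -2.96, SE 0.54, adjusted p = 0.00276). It was below an FPKM of 1 in every MD cultured library and reached the limit for testing through the IP libraries alone. This difference therefore follows in part from its selection. Pygb, which had 398, 348 and 383 against 159, 480 and 223, did not pass (difference 0.55, adjusted p = 0.225), and without IP cultured 4, the library at 480, its difference was 1.00 and past the threshold (adjusted p = 0.00177). Without that library Pfkfb3 (1.43), Pdk2 (0.68), Tpi1 (-0.30), Gpi1 (-0.42) and Gys1 (-0.36) passed as well.

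Among the hypoxia genes Ndrg1 had 119, 164 and 170 FPKM in MD cultured and 13.7, 20.3 and 6.15 in IP cultured, 12-fold higher without overlap (difference 3.58, SE 0.54, adjusted p = 0.00124). Car9 had 3.84, 4.33 and 3.63 against 0.505, 0.753 and 0.24 (difference 2.18, SE 0.23, adjusted p = 0.000282). It reached the limit for testing through the MD cultured libraries alone, so this difference follows in part from its selection. Ddit4 had 115, 125 and 104 against 55.3, 31.6 and 82.8 (difference 1.12, SE 0.30, adjusted p = 0.015). All 3 genes were higher in every MD cultured library, and Bnip3 rose as well by 0.57 (adjusted p = 0.0264). Vegfa was not among them, with 15.5, 23.1 and 21.4 against 22, 14.5 and 13.5 (difference 0.27, interval -0.24 to 0.78, adjusted p = 0.352). Markers of other cells differed between these cultures. The 6 ciliated cell markers summed to 293 to 627 in MD cultured and 64.5 to 258 in IP cultured, with 6 of 6 higher, and the 6 oligodendrocyte markers to 213 to 217 and 633 to 1320, with 6 of 6 lower. The 3 markers of oligodendrocyte precursors summed to 7.52 to 10.2 and 50.6 to 150, with 3 of 3 lower, and the astrocyte markers to 8040 to 11300 and 4780 to 7860. The 9 endothelial markers, of cells that also make Slc2a1 and Slc16a1, summed to 65 to 105 and 4.09 to 21.1, with 2 higher and 1 lower. The 9 neuron markers summed to 110 to 201 and 19.5 to 31.3, with 2 higher and 0 lower. The part of all these markers' cells in the members' differences was not tested. Leaving out a single library ended the calls of Aldoa (IP cultured 2 or 7, or MD cultured 2 or 3), Ldhb and Bnip3 (IP cultured 2 or 7, or MD cultured 1 or 3) and Ddit4 (MD cultured 2, adjusted p = 0.0521), and scaling by the median of ratios brought Hk1 (0.43, adjusted p = 0.0282) and Slc2a1 (0.80, adjusted p = 0.0398) past the threshold.

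Against IP acute, MD cultured had 16 genes higher and 6 lower of 34, where 60.1% of all genes passed (20.4% higher and 39.8% lower), and both groups are shared with the comparisons above. The median difference was 0.49 for the members and -0.24 for all genes, which became 0.73 and -0.01 with scaling by the median of ratios. The authors' deposited table had 22 higher and 6 lower. Lower in MD cultured were Pygm (difference -3.32), Ankrd37 (-3.17), Vegfa (-2.89, SE 0.22, adjusted p = 2.05e-05), Eno2 (-1.84), Slc2a1 (-1.26, adjusted p = 0.00304) and Pfkfb2 (-0.97). Higher by the most were Ndrg1 (difference 3.75, adjusted p = 0.000464), Pfkp (2.67), Aldoc (2.03, SE 0.21), Ldhb (1.59, SE 0.18, adjusted p = 0.000134) and Aldoa (1.23). Car9 also passed (2.54), after reaching the limit for testing in MD cultured alone. Pygm and Ankrd37 were below an FPKM of 1 in every MD cultured library. Pygm reached the limit through the IP acute and IP cultured libraries, and Ankrd37 through IP acute alone. Their differences therefore follow in part from their selection. Slc2a1 and Vegfa were thus lower in either culture than in acute cells, while Aldoc was lower than acute in IP cultured and higher in MD cultured. Here endothelial markers summed to 65 to 105 in MD cultured and 805 to 1520 in IP acute (8 of 9 lower), neuron markers to 110 to 201 and 381 to 1660 (8 of 9 lower), and microglial markers to 27.4 to 90.2 and 138 to 1510 (9 of 10 lower). Precursor markers summed to 7.52 to 10.2 and 388 to 790 (3 of 3 lower) and ciliated cell markers to 293 to 627 and 14.2 to 33.2 (6 of 6 higher), and the part of these in the members' differences was not tested. Hk1 rose by 0.36 (adjusted p = 0.0472), whereas Hk2 (0.46), Ldha (0.14) and Ddit4 (-0.31) did not pass. The calls of Hk1, Eno1, Tpi1 and Pgk1 were lost when a single library was left out (for Hk1 without IP acute 2 or 7 or MD cultured 1 or 2, for Eno1 without any of the 6 but MD cultured 1, for Tpi1 without any of the 6, for Pgk1 without IP acute 2 or MD cultured 1). The highest mean of the 3 preparations was in IP acute for 12 genes, in IP cultured for 7 and in MD cultured for 16.

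**Figure D2:**
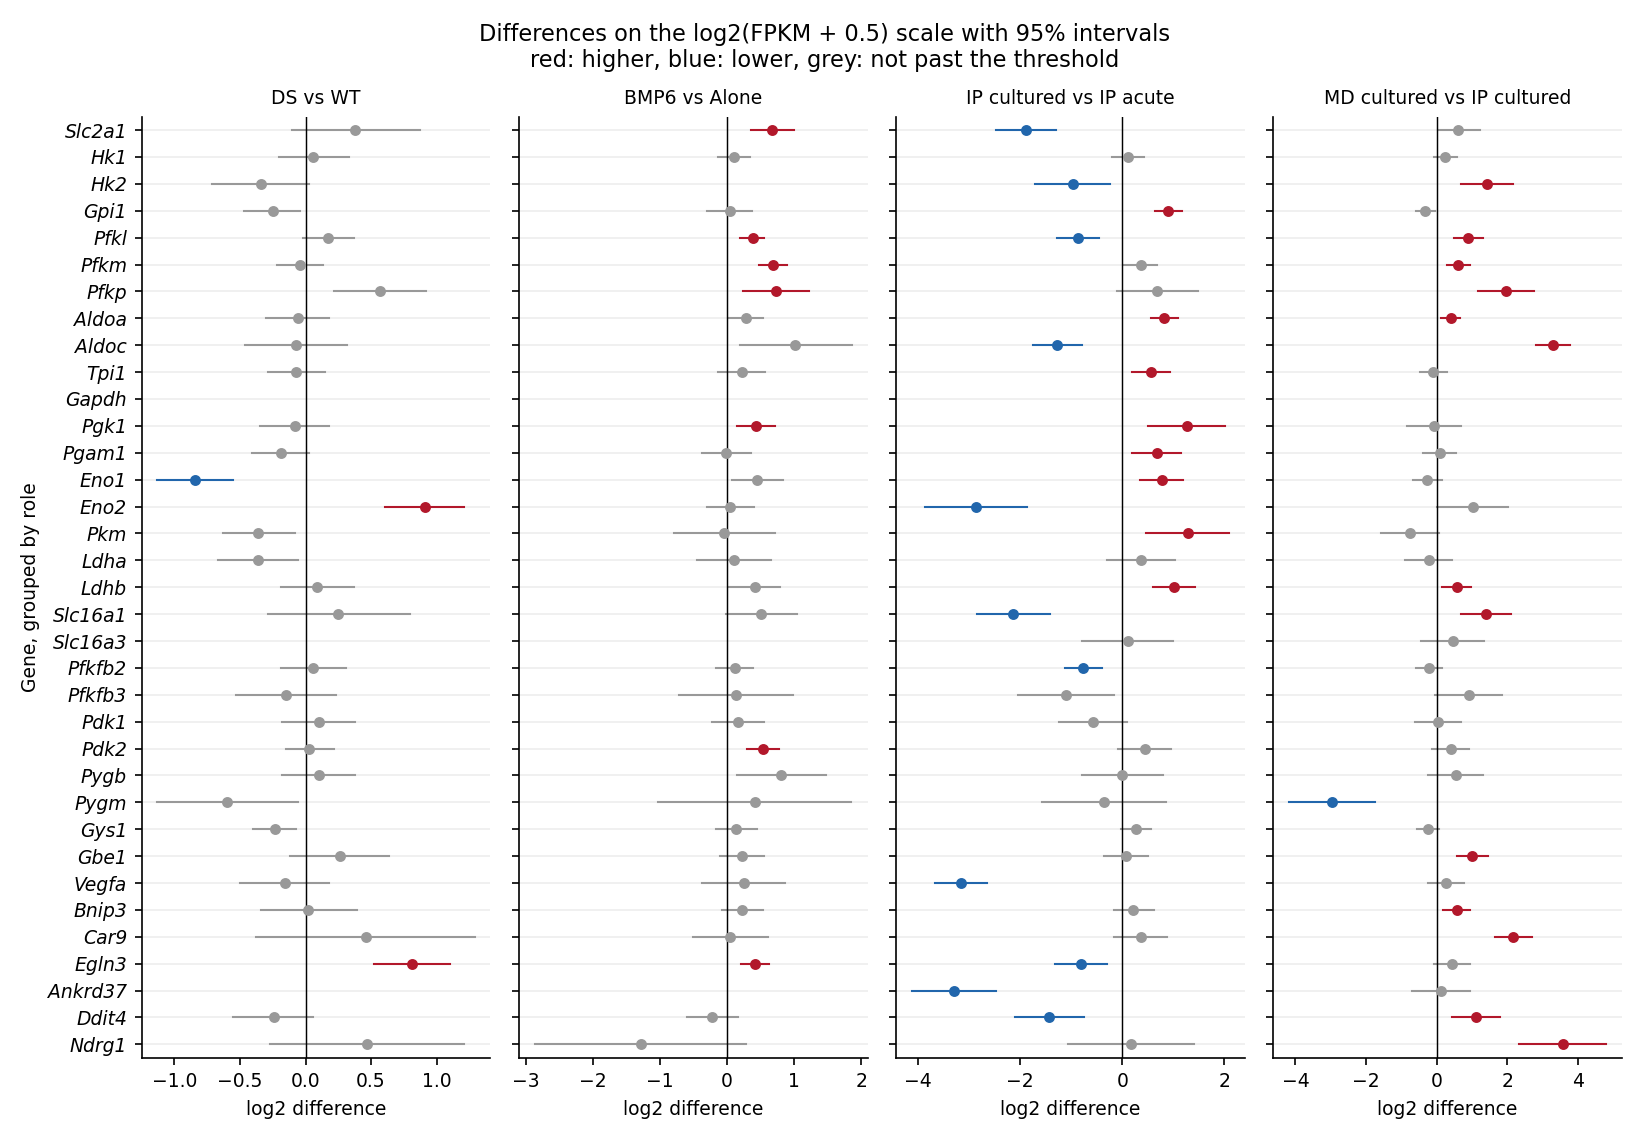
Difference in mean log2(FPKM + 0.5) with its 95% interval for each gene tested in 4 comparisons: DS against WT, BMP6 against Alone, IP cultured against IP acute, and MD cultured against IP cultured. The intervals for Vegfa (-3.67 to -2.65) and Ankrd37 (-4.12 to -2.47) lie far below 0 for IP cultured and that for Aldoc (2.82 to 3.79) far above 0 for MD cultured, while DS differences reach at most 0.91 in size.

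BMP6 is a secreted ligand of the bone morphogenetic protein family, and the treated and the untreated library of a culture carry the same batch label, from 2 to 7. Of 31 genes tested, 7 were higher with BMP6 and 0 lower, against 15.1% of all 12185 genes in either direction with 5.38% higher and 9.72% lower. Groups did not overlap for 3 genes, Pfkm, Pdk2 and Egln3, all higher with BMP6, against 7.93% of all genes. With the culture as a block, 13 were higher and 1 lower, against 35.5% of all genes. The median difference was 0.23 for the members and -0.08 for all genes. In 13 of the 31 genes BMP6 was higher in all 6 cultures and in 0 it was lower in all 6 (41.9% one way). Of all 12185 genes, 1460 were higher in all 6 cultures and 3166 were lower in all 6 (38% one way). The genes that rose were the entry transporter, all 3 phosphofructokinases, Pgk1, a kinase that shuts off pyruvate dehydrogenase, and Egln3.

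Pfkm ran from 108 to 129 FPKM in the Alone libraries, and from 158 to 234 with BMP6 with a median of 192. The groups did not overlap and Pfkm rose 1.61-fold (difference 0.69, SE 0.10, adjusted p = 0.00145). Pfkl ran from 13.3 to 16.4 (median 15.2) and with BMP6 from 16.4 to 21.8 (median 19.8), touching in the culture of batch 4, and rose 1.30-fold (difference 0.38, SE 0.08, adjusted p = 0.0115). Pfkp ran from 20.6 to 44.9 (median 26.3) and with BMP6 from 36.1 to 73.2 (median 45). It was higher with BMP6 in 6 of 6 cultures, by 0.47 to 1.08, although the groups overlapped (difference 0.73, SE 0.23, adjusted p = 0.0485, and 0.00265 with the block). Slc2a1 ran from 19.4 to 39.6 (median 25.7) and with BMP6 from 36.4 to 50.3 (median 45.5), higher in 6 of 6 cultures (difference 0.67, SE 0.15, adjusted p = 0.0128). Pgk1 had a median of 5.99 without and 8.25 with BMP6 (difference 0.43, SE 0.13, adjusted p = 0.0439). The unblocked calls for Pgk1 and Pfkp were lost without the filter on low values (adjusted p = 0.0632 and 0.0687) and when a single library was left out, with adjusted p up to 0.0985 for Pgk1 and 0.099 for Pfkp. For Pfkp this held for each library but the Alone libraries of batches 2 and 7, and for Pgk1 for each BMP6 library but that of batch 7 and the Alone libraries of batches 3, 5 and 7.

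Pdk2, a kinase that inactivates pyruvate dehydrogenase and so keeps pyruvate out of the mitochondrial cycle, ran from 46.7 to 68.5 FPKM (median 59.5) and with BMP6 from 73.7 to 103 (median 80.3). Egln3 ran from 4.54 to 6.62 (median 5.83) and with BMP6 from 6.97 to 8.83 (median 7.75). Neither pair of groups overlapped. Pdk2 rose 1.45-fold (difference 0.53, SE 0.11, adjusted p = 0.00885) and Egln3 1.34-fold (difference 0.42, SE 0.10, adjusted p = 0.0144). The related kinase Pdk1 was not past the threshold (difference 0.17, adjusted p = 0.558).

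**Figure D3:**
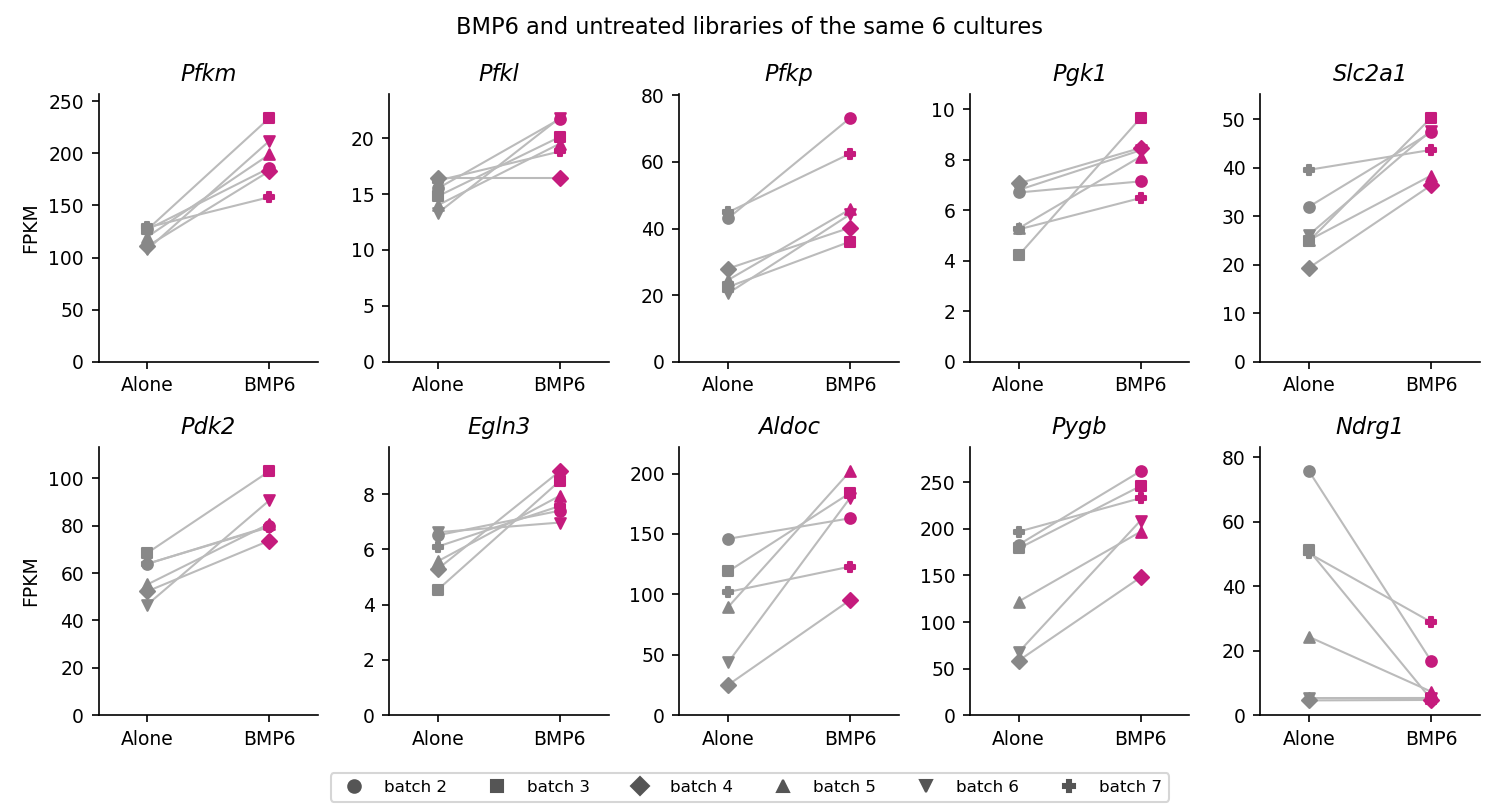
FPKM of 10 genes in the Alone and BMP6 libraries, with a line joining the libraries of each of 6 cultures. All 6 lines rise for Pfkm, Pfkp, Pgk1, Slc2a1, Pdk2, Egln3, Aldoc and Pygb, and those of Ndrg1 fall in 4 cultures and stay near 5 in batches 4 and 6.

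A further 7 genes passed only when each treated library was compared with its own culture. Aldoc ran from 25.1 to 146 FPKM (median 95.9) and with BMP6 from 95.4 to 202 (median 171), higher in 6 of 6 cultures (difference 1.02, adjusted p = 0.0216 with the block and 0.0913 without). Pygb ran from 58.5 to 197 and with BMP6 from 148 to 262, also higher in 6 of 6 (difference 0.81, adjusted p = 0.0136 and 0.0913). The untreated libraries of batches 4 and 6 stood apart, with the lowest Aldoc (25.1 and 43.8), Pygb (58.5 and 67.6) and Ndrg1 (4.58 and 5.31) and the highest Pkm (498 and 644). Eno1 (0.45), Ldhb (0.41, adjusted p = 0.0181), Slc16a1 (0.51) and Aldoa (0.28) were higher as well under the block. Ndrg1 was lower, at 75.7, 51.1, 24.3 and 50.2 in batches 2, 3, 5 and 7 without BMP6 and 16.9, 5.01, 7.33 and 28.9 with it (difference -1.29, SE 0.42, adjusted p = 0.045). In batches 4 and 6 Ndrg1 was already at 4.58 and 5.31 without BMP6. Leaving these 2 cultures out gave 15 higher and 1 lower under the block, against 31.3% of all genes, with Aldoc at 0.55 and Ndrg1 at -1.95. In that fit Ldhb (0.27, adjusted p = 0.056) and Aldoa (0.32, adjusted p = 0.0585) no longer passed, while Pygm (1.00, adjusted p = 0.0124), Vegfa (0.37, adjusted p = 0.0484), Tpi1 (0.40) and Gys1 (0.30) did. Without the block 2 were higher and 0 lower, and the calls of Pdk2 (0.44, adjusted p = 0.0634), Egln3 (0.44, adjusted p = 0.0708), Slc2a1 (0.58, adjusted p = 0.0768), Pgk1 (adjusted p = 0.0977) and Pfkp (adjusted p = 0.184) were lost. In the same cultures with the block, each of these genes passed. Their adjusted p was 0.00995 for Pdk2, 0.0285 for Egln3, 0.0185 for Slc2a1, 0.0482 for Pgk1 and 0.00451 for Pfkp.

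Other genes of fixed interest did not pass in either fit of all cultures. Hk1 ran from 39.4 to 57.7 FPKM and with BMP6 from 43 to 58.9 (difference 0.11, interval -0.13 to 0.34, adjusted p = 0.537). Ldha had a difference of 0.10 (interval -0.45 to 0.65), Vegfa of 0.25 (interval -0.37 to 0.86) and Ddit4 of -0.22 (interval -0.60 to 0.16). Pygm spread from 0.78 to 16.9 among the Alone libraries, and its difference of 0.41 had an interval of -1.03 to 1.85. By culture it was lower with BMP6 in batches 4 and 6 (-0.64 and -0.90) and higher in the other 4 (0.41 to 1.65). Hk2, not tested, was at 0.626 to 2.48 without and 0.762 to 1.26 with BMP6. Beside these values, the astrocyte markers summed to 1450 to 3060 without and 2340 to 4160 with BMP6, and 2 of 11 tested, Glul and Aqp4, were higher. The part of this shift in the members' differences was not tested.

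The disorder models were each compared with the same 6 WT libraries, so the 3 comparisons share their controls. In DS 2 genes were higher and 1 lower of 32 tested, against 4.35% of all 12780 genes in either direction (2.1% higher and 2.25% lower). In FXS and in RTT 0 passed, against 0.00782% of all genes in each, which is 1 gene. At an unadjusted p under 0.05 there were 8 in FXS (19.5% of all genes), 1 in RTT (10.5%) and 9 in DS (19.8%). The median differences of the members were 0.01 in FXS, -0.07 in RTT and -0.01 in DS, beside -0.02, -0.03 and -0.07 for all genes. Both DS changes in glycolysis were in the enolases, which turn 2-phosphoglycerate into phosphoenolpyruvate.

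Eno1, the general enolase (chr4:150236721-150248879, plus strand), had 51.8, 43.4, 61.4 and 33.8 FPKM in the 4 DS libraries and 69.4 to 97.1 in WT with a median of 84.8. Eno2 (chr6:124760053-124769673, minus strand) had 6.59, 5.88, 5.2 and 4.93 in DS and 2.48 to 3.15 in WT with a median of 2.75. Each DS library was below every WT library for Eno1 and above every WT library for Eno2. Eno1 fell 1.79-fold (difference -0.84, SE 0.14, adjusted p = 0.000906) and Eno2 rose 1.88-fold (difference 0.91, SE 0.14, adjusted p = 0.000452). The Eno1 windows that occur elsewhere (72.2%) include those of the near-identical Eno1b, and reads from shared windows cannot be assigned to 1 of the 2 genes. Eno1b was listed at 42.8 to 73.1 in DS and 72.7 to 102 in WT (difference -0.62, SE 0.14, adjusted p = 0.00936). The means of Eno1 and Eno1b were 47.6 and 58 in DS and 84 and 88.3 in WT. Of the Eno2 windows, 0.255% occur elsewhere. Neuron markers summed to 25.4 to 64.3 in DS and 15 to 56.4 in WT, with 2 of 5 tested (Syt1 and Gad1) higher, and their part in the Eno2 value was not tested.

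Egln3 (chr12:54178981-54203860, minus strand), the oxygen sensor whose upstream window is printed above, had 11.9, 9.34, 15.8 and 14.8 FPKM in DS and 6.38 to 8.85 in WT with a median of 6.79. Every DS library was above every WT library, and it rose 1.76-fold (difference 0.81, SE 0.14, adjusted p = 0.00121). Groups did not overlap for 4 of the 32 genes, against 6.2% of all genes. The fourth was glycogen synthase 1 (Gys1), the enzyme that builds glycogen, with 16.5, 17.7, 15.2 and 16.8 in DS and 18.6 to 20.3 in WT (difference -0.23, SE 0.08, adjusted p = 0.0978). Pfkp had 86.2, 52.9, 53.9 and 46.9 in DS and 29 to 49 in WT (difference 0.57, adjusted p = 0.0584). The human counterpart of Pfkl lies on the chromosome that is trisomic in Down syndrome, and the mouse gene is on chromosome 10. Pfkl had 21.7, 21.3, 21.1 and 21.3 in DS, within the 16.1 to 22.3 of WT (difference 0.17, interval -0.02 to 0.37, adjusted p = 0.312).

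The remaining genes did not pass in DS. Hk1 ran from 33.1 to 58.4 FPKM in DS against 43.2 to 48.4 in WT (difference 0.06, interval -0.20 to 0.33). Hk2 had a difference of -0.34 (interval -0.71 to 0.03), Ldha of -0.36 (interval -0.67 to -0.06, adjusted p = 0.167), Slc2a1 of 0.38 (interval -0.10 to 0.87) and Pygm of -0.60 (interval -1.13 to -0.06, adjusted p = 0.197). Ldha passed when DS 32 was left out (difference -0.51, adjusted p = 0.0392). Vegfa, Aldoc, Ldhb and Ddit4 overlapped with WT, Vegfa at 8.68 to 15.1 against 10.2 to 17.9 and Aldoc at 101 to 172 against 128 to 157. Endothelial markers summed to 106 to 261 in DS and 60.5 to 104 in WT, with 1 of 4 tested (Slco1a4) higher, and their part was not tested.

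**Figure D4:**
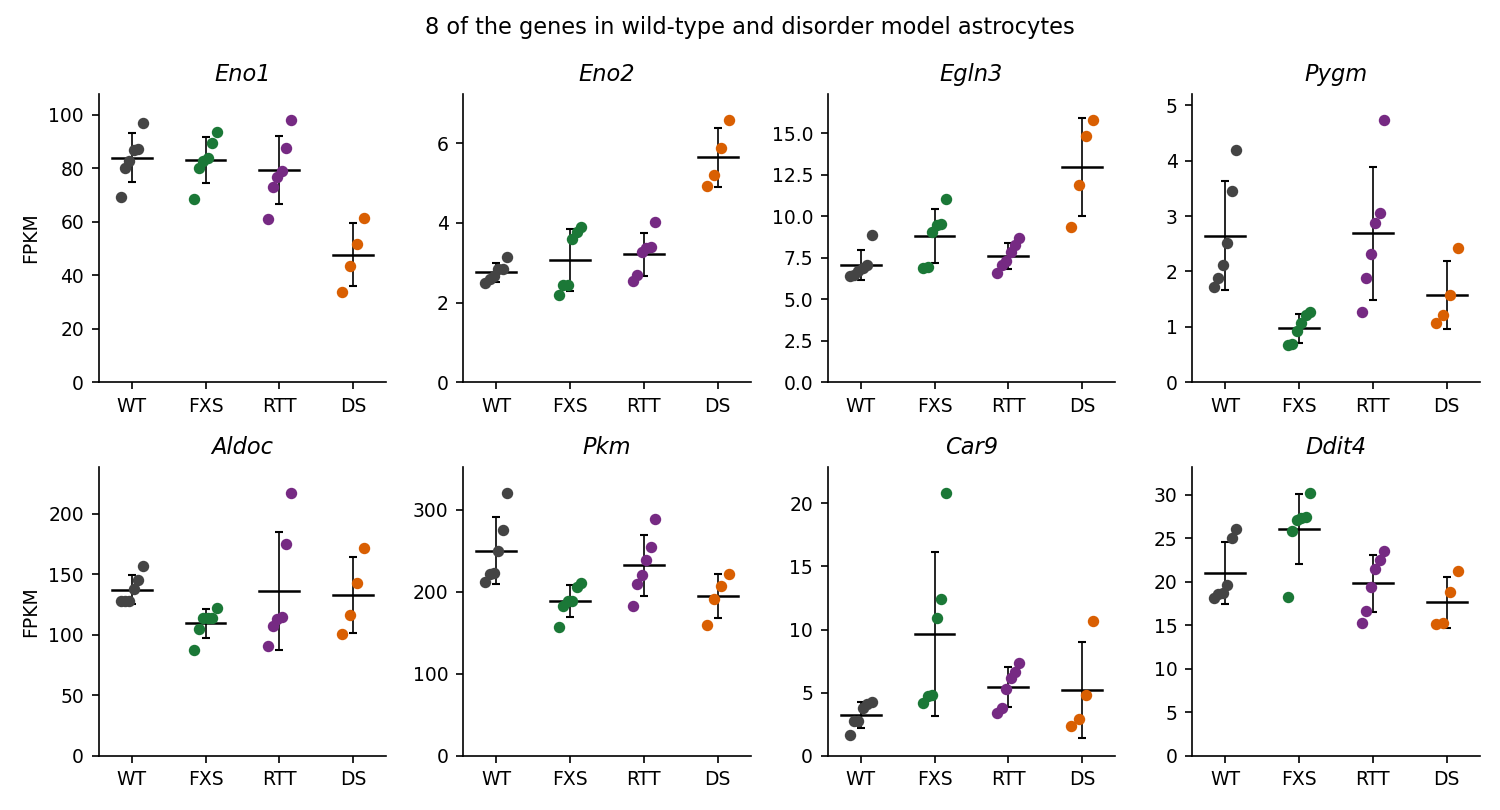
FPKM of 8 genes in the WT, FXS, RTT and DS libraries, with 1 point per library, a line at the mean and bars of 1 SD. The 4 DS points of Eno1 (33.8 to 61.4) lie below every WT and FXS point and overlap those of RTT at 60.9, those of Eno2 (4.93 to 6.59) lie above every other library, and the FXS points of Pygm (0.668 to 1.26) lie below all WT points.

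In FXS the lowest p-value belonged to Pygm, with 0.668 to 1.26 FPKM (median 0.998) against 1.72 to 4.2 in WT (median 2.32). All 6 FXS libraries were below all 6 WT libraries, but the difference of -1.06 (SE 0.23) had an adjusted p of 0.072, and of 0.0316 when only FXS and WT were fitted. Groups did not overlap for 3 genes, all lower in FXS, against 1.06% of all genes. The other 2, named after their values were seen, were Pkm, at 157 to 211 against 212 to 320 (difference -0.40, adjusted p = 0.118), and Aldoc, with a lowest value of 87.6 and a median of 114 against 128 to 157 (difference -0.33, SE 0.17, adjusted p = 0.284). Car9, also chosen after its values were seen, ran from 4.18 to 20.8 in FXS and 1.61 to 4.29 in WT (difference 1.26, SE 0.36, adjusted p = 0.115). Slc2a1 ran from 47.8 to 99.7 against 31.3 to 55.6 (difference 0.55, SE 0.21, adjusted p = 0.155). None of these passed. Ciliated cell markers summed to 314 to 1040 in FXS and 137 to 442 in WT, 6 of 6 with a higher mean and 0 past the threshold, and their part was not tested. Ddit4 had a difference of 0.30 (interval 0.03 to 0.58, adjusted p = 0.209) and Hk2 of 0.25 (interval -0.09 to 0.58).

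In RTT the 1 gene with an unadjusted p under 0.05 was Pgam1, with 6.75 to 8.16 FPKM against 8.14 to 11.5 in WT (difference -0.30, SE 0.09, adjusted p = 0.47). The groups touched. Slc2a1 ran from 29.7 to 66.4 against 31.3 to 55.6, Aldoc from 91 to 217 against 128 to 157, and Pygm from 1.27 to 4.74 against 1.72 to 4.2, all with wide overlap. Ldha had a difference of -0.25 (interval -0.52 to 0.02) and Vegfa of 0.24 (interval -0.07 to 0.54). The intervals show that differences of this size in RTT could not be told from 0 with 6 libraries a group.

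Whether the DS changes set that model apart was tested directly, in contrasts chosen after the values above were seen. Against FXS, 2 of 32 genes were higher and 2 lower in DS, where 2.72% of all genes passed. Eno1 had a difference of -0.82 (adjusted p = 0.00127), Eno2 was higher by 0.81 (SE 0.14, adjusted p = 0.00169), Egln3 was higher by 0.52 (adjusted p = 0.0483) and Ddit4 had a difference of -0.55 (adjusted p = 0.0494). Against RTT, 2 were higher and 1 lower, where 2.74% of all genes passed, with Eno1 at -0.75 (adjusted p = 0.00322), Eno2 at 0.73 (adjusted p = 0.00454) and Egln3 at 0.70 (adjusted p = 0.00533). Between RTT and FXS 0 of 32 genes passed, where 0.0235% of all genes did. The enolases and Egln3 therefore passed between DS and each of WT, FXS and RTT, in contrasts that share the same 4 DS libraries. For Egln3 the DS libraries (9.34 to 15.8) overlapped those of FXS (6.87 to 11), and its adjusted p of 0.0483 was close to the threshold. The contrasts between models were not refitted under the alternatives.

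Levels of paralogs can be compared as shares within a library, which scaling of the library cannot change. Eno2 made up 11.3, 11.9, 7.8 and 12.7% of enolase FPKM (Eno1 and Eno2) in DS, 10.9% ± 2.17 (SD, n = 4) against 3.21% ± 0.439 (SD, n = 6) in WT. These groups did not overlap, and p = 0.00952 in a two-sided exact permutation test is the smallest that 4 against 6 libraries allow. Over all 49 tests of 7 shares in 7 comparisons 0 passed after Benjamini-Hochberg adjustment, with an adjusted exact p of 0.117 for this one. The sum for the Eno2 share leaves out Eno1b, listed at a mean of 58 in DS and 88.3 in WT. Counting it would make the share lower in both groups. In FXS, Pygm made up 0.441% ± 0.123 (SD, n = 6) of Pygb and Pygm against 1.36% ± 0.819 (SD, n = 6) in WT, also without overlap (exact permutation p = 0.00216, adjusted 0.106). Aldoc made up 66.8% ± 4.22 of aldolase FPKM (Aldoa and Aldoc) in IP acute, 32.2% ± 4.70 in IP cultured and 77.9% ± 1.97 in MD cultured (SD, n = 3 each). The 3 preparations did not overlap in this share, but 3 libraries against 3 cannot go below an exact p of 0.1.

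**Figure D5:**
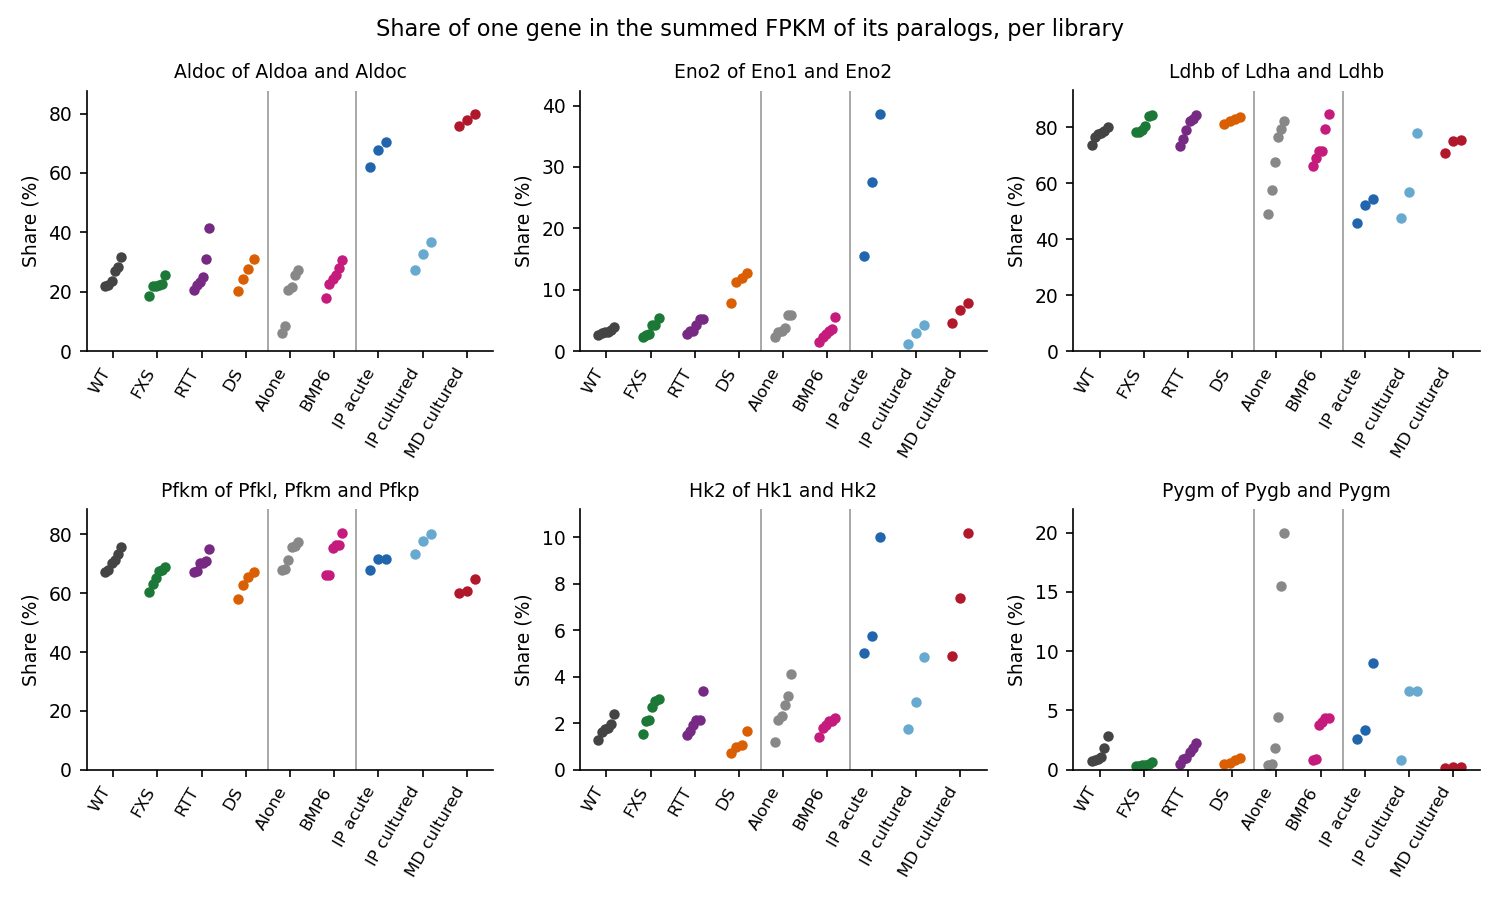
Share of one paralog in the summed FPKM of its family, in percent, for 6 families in the 9 groups, with 1 point per library. Eno2 takes 7.8 to 12.7% of Eno1 and Eno2 (Eno1b left out) in DS against 2.67 to 3.92% in WT. Aldoc falls from 62.1 to 70.4% in IP acute to 27.3 to 36.6% in IP cultured.

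Other genes of these pathways, from lists that hold none of the 35, were described by the same test. In DS, where 2.1% of all genes were higher and 2.25% lower, 0 of 11 other genes of glycolysis and gluconeogenesis and 0 of 10 HIF factors and oxygen sensors passed. Lower were Ppp1r3e, a targeting subunit of the glycogen phosphatase (difference -0.72, adjusted p = 0.00067, 1 of 22 other glycogen genes), Hmox1, which degrades haem (-0.79, adjusted p = 0.0073, 1 of 31 other hypoxia genes), and Dlat, a subunit of pyruvate dehydrogenase (-0.29, adjusted p = 0.0472, 1 of 12 genes from pyruvate to acetyl-CoA). The inositol transporter Slc2a13 was higher (0.54, adjusted p = 0.0172, 1 of 10 other transporters). In FXS and RTT 0 genes of these lists passed, and Hif1a, the oxygen-regulated subunit of HIF, had a difference of -0.40 in FXS (adjusted p = 0.072) and -0.18 in RTT (adjusted p = 0.478). Hif1a in DS had a difference of 0.12 (adjusted p = 0.53). Epas1, the second such subunit, Egln1, the main oxygen sensor, and Pdk4, another pyruvate dehydrogenase kinase, passed in none of the 3 models.

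With BMP6, 3 of 10 other transporters were higher and 0 lower, 2 of 22 other glycogen genes were higher, and 2 of 31 other hypoxia genes were higher and 2 lower, where 5.38% of all genes were higher and 9.72% lower. Those with the smallest p were Emb, a partner protein of lactate transporters (difference 1.82, adjusted p = 4.42e-05), Rcor2 (-1.84), Slc2a13 (1.23, adjusted p = 0.0011) and the glycogen phosphatase Epm2a (0.60). Epas1 was higher, with a mean of 54.9 against 32.8 FPKM (difference 0.68, SE 0.18, adjusted p = 0.024), while Hif1a (-0.11), Egln1 (0.06) and Pdk4 (0.21, adjusted p = 0.0849) did not pass. In IP cultured against IP acute, 7 of 12 other transporters, 3 of 11 HIF factors and sensors and 9 of 33 other hypoxia genes were lower, beside 0, 0 and 4 higher, where 25.5% of all genes were lower and 17.8% higher. All 5 called genes of the pentose phosphate pathway, which diverts glucose 6-phosphate, were higher, of 7 tested. The transcription factor Bhlhe40 had a mean of 41.6 against 391 FPKM (difference -3.23, adjusted p = 1.69e-05), and Slc2a13 (-3.08), Wsb1 (-1.94) and the ubiquitin ligase Siah2 (-1.71) followed. Epas1 was lower by the same test (difference -1.69, adjusted p = 0.00671), as was Pdk4 (-1.05, adjusted p = 0.0194), and Hif1a was not past the threshold (-0.06, adjusted p = 0.748).

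In MD cultured against IP cultured, 7 of 33 other hypoxia genes were higher and 9 lower, and 1 of 11 HIF factors and sensors was higher and 5 lower, where 16.4% of all genes were higher and 29.3% lower. Hif3a, another HIF subunit, had a mean of 8.6 FPKM against 0.0347 (adjusted p = 5.09e-05). With so low a mean in IP cultured, Hif3a reached the limit for testing without those libraries. Its difference therefore follows in part from its selection. Hif1a had a mean of 31.6 against 69.7 (difference -1.12, SE 0.12, adjusted p = 0.000344), and Pdpr, a regulator of pyruvate dehydrogenase phosphatase (-1.31), and Rcor2 (-2.78) were lower too. Pdk4 was higher (difference 1.23, adjusted p = 0.00976), and Egln1 (-0.15) and Epas1 (0.79, adjusted p = 0.114) did not pass. Of the hypoxia genes among the members, Ndrg1, Car9, Ddit4 and Bnip3 were higher in this comparison and Vegfa did not pass. The part of HIF in these values was not tested.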

How the data were processed

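RNA was measured in 43 libraries, in 3 tables of 24537 genes. The authors deposited FPKM in the first 2 tables, by the name of their workbook, and the preparation table names no unit in its header but has values of the same kind, summing to 605761 to 637271 per library against 305262 to 401659 in the others. The authors' deposited log2 fold changes and adjusted p-values for the preparations were used only for the counts credited to them. Tools listed in the submitters' processing notes are STAR 2.5.3a, HOMER 4.10.4, DESeq2 1.14.1 and FastQC 0.11.8, with the mm10 build; which of them made which column is not given in the sources used here.

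From the deposited FPKM, log2(FPKM + 0.5) was fitted with limma 3.58.1 in R 4.3.3 (empirical Bayes with a mean trend), one fit per table, on genes at an FPKM of 1 or more in as many libraries as the smallest group. This kept 12780, 12185 and 14101 genes, and p-values were adjusted by Benjamini-Hochberg over them, with a threshold of 0.05. Since the values are not counts, no count test was run. Depth was estimated from the steps of low FPKM values, of which 68.0 to 74.1% per library came out within 0.08 of a whole read, so the depths are estimates. The fit was tested on simulated data. Shares were compared with SciPy 1.17.1. Sequences are RefSeq's on GRCm38.p6, and gene positions GENCODE vM21's on GRCm38.

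Groups came from the labels. BMP6 and Alone cultures were paired because each pair has its own batch label and each library deviated most like its partner (r of 0.41 to 0.777 over genes). The disorder table is a single labelled batch, as is the preparation table.

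The members and gene lists were chosen with earlier results of these data known. Members past the threshold were named with values, up to 12 per comparison by p-value, and Hk1, Hk2, Aldoc, Ldha, Ldhb, Slc2a1, Pygm, Vegfa and Ddit4 in any case. Of the other lists, up to 4 called genes were named, with Hif1a, Epas1, Egln1 and Pdk4 in any case. Alternatives were other pseudocounts, filters, scalings, fits of fewer groups, a replicate block, and leaving out each library. Joint exclusions of several chosen libraries were added to these and were not planned. One gene is not reported here.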

Additional observations from a re-analysis of the deposited data

Results flagged for a closer look

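In 7 of 190 groups of 4 to 10 libraries a single library stood away from the rest by Dixon's 95% criterion, which chance alone gives in about 1 in 20 groups. In WT 22, Vegfa was at 17.9 FPKM with the next library at 12.1, and Egln3 was at 8.85 with the next at 7.05. In FXS 31 Pgk1 was at 9.79, with the next at 7.37. In FXS 28 Ddit4 was low, at 18.3 with the next at 25.9. In RTT 40 Pfkfb2 was at 6.02 with the next at 4.92, and in DS 32 Gbe1 was at 22.9 with the next at 15.9. In the BMP6 library of batch 7, Bnip3 was at 7.94 with the next at 6.19. The high WT value of Egln3 lies below every DS value, the lowest of which was 9.34.

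DS differed from the other models in a direct contrast for 4 of the genes. For Eno1 the difference of DS from FXS was -0.82 (47.6 against 83.1 FPKM on average) and from RTT -0.75 (47.6 against 79.3). For Eno2 it was 0.81 and 0.73 (5.65 against 3.06 and 3.21). For Egln3 it was 0.52 from FXS and 0.70 from RTT (12.9 against 8.81 and 7.62). For Ddit4 it was -0.55 from FXS (17.7 against 26.1), while its difference from WT did not pass.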

How the results depend on the processing

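Over the genes named with values, 1725 of 1835 values under an alternative kept the side of the threshold, 96 lost the call and 14 gained one. The sign changed in 0 called values and in 23 values that were not called. These came from 10 results that had not passed, with reported differences of at most 0.36 in size. The number of members called in FXS went from 0 to 1 when FXS and WT alone were fitted, and in DS from 3 to 5 without WT 33, FXS 31 and DS 32 together. That joint exclusion was not planned, nor was leaving out the cultures of batches 4 and 6. With BMP6 the 7 became 14 with the replicate block, 2 without the cultures of batches 4 and 6, and 16 with both changes; this pairing changed no call in the opposite direction. For MD cultured against IP cultured the 14 became 24 without IP cultured 4. Leaving out each library in turn gave 0 to 0 calls in FXS and in RTT, 3 to 4 in DS, 5 to 7 with BMP6, 14 to 22 for IP cultured against IP acute, 11 to 24 for MD cultured against IP cultured and 19 to 21 against IP acute. The cause of these shifts was not tested. Libraries of IP acute and IP cultured that share the numbers 2, 4 and 7 deviated little alike (r of 0.0177, -0.0564 and 0.0909). With 3 libraries a group, these r cannot tell whether a shared number means a shared preparation. The block by number gave 14 calls against 16 without it on the same 6 libraries. No paired analysis was possible for the disorder models or MD cultured because they share fewer than 2 numbers with their comparison group.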
